A study of Mus musculus with 53 samples.

Results

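The DNA end repair genes linked to ataxia were taken here as Xrcc1, Lig3, Polb, Parp1, Aptx, Tdp1 and Atm, chosen by gene symbol from the table of read counts. All 7 were among the 12372 genes of that table, so none was lost to the filter on low expression. RNA sequencing had been performed on brainstem, cerebellum, cortex and striatum of aged MJD84.2 mice, a model of spinocerebellar ataxia type 3 (SCA3), and of wild-type mice. The SCA3 mice were hemizygous for human ATXN3 carrying an expanded CAG repeat, driven by its own human promoter, and kept their mouse Atxn3 gene. All 14 mice were untreated males of the C57BL/6 strain, 74 to 77 weeks old, and had been through motor tests. There were 8 wild-type and 6 SCA3 brainstem libraries, 7 and 6 from cerebellum, 7 and 6 from cortex, and 8 and 5 from striatum, with 1 library per mouse and region. The model had not developed an ataxic phenotype at this age, and in whole pieces of tissue fewer cells of a type cannot be told apart from less RNA per cell.

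A broken DNA strand often ends in chemical groups that a ligase cannot join, and neurons, which no longer divide, depend on enzymes that clean and seal such ends. Parp1 senses the break and marks the site with poly(ADP-ribose), Xrcc1 is the scaffold that gathers the repair enzymes there, Polb fills the gap and Lig3 seals the nick. Aptx removes the AMP left by failed ligation, Tdp1 removes topoisomerase 1 remnants from DNA ends, and Atm is the kinase that signals double-strand breaks. Loss of APTX, TDP1, XRCC1 or ATM in humans causes recessive ataxia, in the case of ATM ataxia telangiectasia.

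The shallowest library held 31.7 M counts and the deepest 76.7 M (M, mega). Expression is given as CPM, a count relative to the library total after TMM scaling, and the 7 genes had between 422 counts (Tdp1) and 6544 counts (Parp1) in any library. RNA integrity (RIN) was higher in SCA3 than in wild-type brainstem (7.78 ± 0.264 against 7.24 ± 0.424, SD, n = 6 and 8, two-sided exact permutation test, p = 0.0107, adjusted over 4 regions 0.0426). SCA3 mice were lighter (31.0 against 43.4 g among the brainstem mice, exact permutation test, p = 0.000333), so bodyweight and genotype cannot be told apart. A thalamus score, the mean log2 CPM of 9 thalamic marker genes, set 5 libraries apart, namely 1 wild-type and 2 SCA3 brainstem libraries and 2 wild-type striatum libraries. Of the markers fixed for each region, the cerebellar ones summed to 3245 to 5050 CPM in cerebellum and to at most 374 elsewhere, and the striatal ones to 1597 to 7309 in striatum and to at most 2923 elsewhere, in cortex. Only 2 of 5 cortical and 1 of 7 brainstem markers were in the table, so these labels could be checked less well. The table holds no human gene, so the transgene has no row of its own. Reads were aligned to the mouse genome alone with mismatches allowed, and whether human ATXN3 reads were counted as Atxn3 was not tested. Of the tests of genotype in single regions, Atxn3 passed that in striatum, where it was higher in SCA3 mice (log2 fold change 0.33, SE 0.06, edgeR FDR 0.000116). Atxn3 also passed the combined test over the 4 regions (edgeR FDR 7.77e-05), but not that of a difference between them (FDR 0.209).

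On the mouse genome GRCm38 the genes lie on 7 different chromosomes. Xrcc1 spans chr7:24546289-24573440, Lig3 chr11:82781108-82804274, Polb chr8:22628126-22653435 and Parp1 chr1:180568924-180601254. Aptx spans chr4:40682382-40703194, Tdp1 chr12:99884517-99955219 and Atm chr9:53439149-53536740. Atm has by far the longest transcript model, with 9787 exonic bases in 64 exon blocks, against 1201 for Polb, the shortest. Counting ignored strand, and Lig3 shares 414 exonic bases with Rffl on the opposite strand, so that reads from that stretch cannot be assigned to either. Polb shares 45 exonic bases with the antisense transcript Gm26909 and Parp1 shares 7 with Mir6904. Atm shares none with another gene. Its neighbour Npat, a regulator of histone gene transcription, is read in the opposite direction. The starts lie 307 bases apart in GENCODE, whose spans are given above, and 376 bases apart in RefSeq, which places the Atm start further inside the gene. Npat was named after its values were seen. The promoter windows of this pair are shown because both genes appear in the brainstem result below. Each window runs 5′ to 3′ on the gene's own strand from 250 bases before to 50 bases after the start (RefSeq, GRCm38.p6, chr9:53536622-53536921 for Atm, minus strand, and chr9:53536797-53537096 for Npat, plus strand), and capitals mark the 125 bases that the windows share.
Atm: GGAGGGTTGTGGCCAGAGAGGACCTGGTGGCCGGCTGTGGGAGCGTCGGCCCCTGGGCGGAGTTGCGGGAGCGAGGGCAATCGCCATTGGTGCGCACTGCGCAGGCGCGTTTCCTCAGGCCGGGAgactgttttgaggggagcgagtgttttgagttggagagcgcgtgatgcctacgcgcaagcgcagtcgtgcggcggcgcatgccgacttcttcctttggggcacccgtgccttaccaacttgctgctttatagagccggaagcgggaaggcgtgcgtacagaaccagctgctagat
Npat: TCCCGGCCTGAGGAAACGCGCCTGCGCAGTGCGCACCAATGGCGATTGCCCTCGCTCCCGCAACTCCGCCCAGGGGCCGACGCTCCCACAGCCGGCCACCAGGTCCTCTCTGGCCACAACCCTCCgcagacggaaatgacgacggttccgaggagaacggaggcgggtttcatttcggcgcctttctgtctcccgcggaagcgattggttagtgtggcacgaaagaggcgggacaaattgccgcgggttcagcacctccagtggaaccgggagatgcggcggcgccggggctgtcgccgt
Searched on both strands, the Atm window holds GCGCATGC, part of the motif of nuclear respiratory factor 1, which is also in the Tdp1 window and in 2.71% of all 32851 promoter windows. It also holds the GC box letters GGGCGG, found in 5 of the 6 member windows that could be matched and in 35.7% of all windows. CCAAT is in the windows of Xrcc1, Aptx and Atm, 3 of 6, and in 37.4% of all windows. Among the 6 member windows only that of Atm holds TATAAA, found in 13.6% of all windows. A match of letters is a description and does not show that a factor binds.

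To establish where the end repair genes are expressed, wild-type regions were compared pairwise within the edgeR fit of all 53 libraries, with a call at FDR below 0.05. Between brainstem and cerebellum all 7 genes differed, where 72.6% of all genes did. Between brainstem and cortex it was 7 of 7 (65.4% of all genes), falling to 4 without wild-type mouse 9083373 or 9083375, between brainstem and striatum 4 (64.2%), between cerebellum and cortex 5 (69.7%), between cerebellum and striatum 6 (69.5%) and between cortex and striatum 2 (34.4%). The 6 comparisons share libraries, and read against those shares the counts show nothing particular to the 7 genes. Cerebellum had the highest level of 5 genes and cortex that of the other two, while brainstem had the lowest level of 5.

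**Figure D1:**
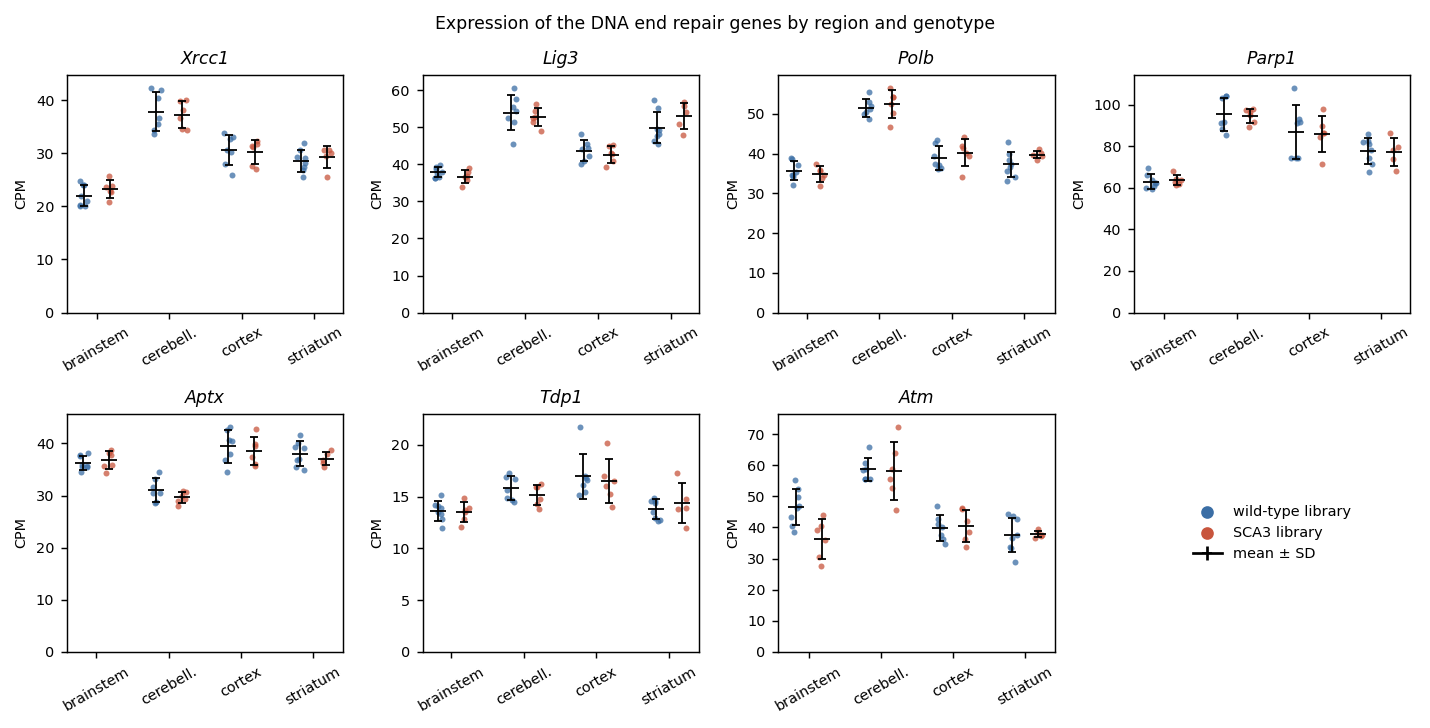
Expression in CPM (vertical axes, from 0) of each end repair gene in the 4 brain regions, with one point per wild-type (blue) or SCA3 (red) library and black bars for the mean ± SD. Xrcc1, Lig3, Polb, Parp1 and Atm are highest in wild-type cerebellum, and the ranges of the genotypes overlap in every panel. For Atm, 3 of 6 SCA3 libraries lie below all wild-type ones in brainstem, and 3 lie below and 1 above them in cerebellum.

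The scaffold Xrcc1 had the widest regional range. Its wild-type level was 37.9 ± 3.66 CPM in cerebellum (SD, n = 7), 30.7 ± 2.87 in cortex (n = 7), 28.6 ± 2.05 in striatum (n = 8) and 22.0 ± 1.99 in brainstem (n = 8). Cerebellum exceeded brainstem 1.72-fold (log2 difference 0.78, SE 0.07, edgeR FDR 7.59e-31), and the 8 brainstem libraries, from 20.1 to 24.8 CPM, did not reach the lowest cerebellar one at 33.7. Only the step from cortex to striatum was within the spread (FDR 0.241).

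Lig3, the ligase that Xrcc1 holds and stabilises, followed cerebellum with striatum. It measured 54.0 ± 4.80 CPM in cerebellum, 49.9 ± 4.19 in striatum, 43.6 ± 2.85 in cortex and 37.8 ± 1.33 in brainstem. Cerebellum and striatum were not separated in this fit (FDR 0.0538), but were with the mouse as a random block in limma-voom (FDR 0.0333) and by the quasi-likelihood test (FDR 0.0384), DESeq2 (FDR 0.0373) and limma-voom without a block (FDR 0.0436). They were not with the mouse as a fixed block in edgeR (FDR 0.0691) or without the libraries of high thalamus score (FDR 0.19). Every other pair was separated, with cerebellum 1.43-fold above brainstem. Polb, which also inserts the missing base in base excision repair, stood out in cerebellum alone, at 51.5 ± 2.22 CPM against 39.0 ± 2.99 in cortex, 37.3 ± 3.13 in striatum and 35.7 ± 2.35 in brainstem. The lowest cerebellar library, at 48.7 CPM, lay above the highest wild-type library of any other region, at 43.4. Among the other 3 regions, only cortex and brainstem passed the test (FDR 0.0389), and not with RLE size factors (FDR 0.0608), with RIN as a covariate (FDR 0.0516) or in the libraries with a RIN of at least 7 (FDR 0.098). That call was also lost without any 1 of 5 wild-type mice (FDR 0.058 to 0.151).

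Parp1 measured 95.3 ± 8.00 CPM in cerebellum, 86.7 ± 12.8 in cortex, 77.9 ± 6.27 in striatum and 63.0 ± 3.43 in brainstem. The neighbours cerebellum and cortex (FDR 0.0697) and cortex and striatum (FDR 0.0601) were not separated in this fit. With the mouse as a block both pairs were, at FDR 0.0297 and 0.0423 as a random block in limma-voom and 0.0366 and 0.0301 as a fixed block in edgeR. Without a block, limma-voom gave 0.0473 and 0.0745, DESeq2 0.0433 and 0.0619, and the quasi-likelihood test 0.0635 and 0.0551. Cerebellum exceeded striatum 1.22-fold and brainstem 1.51-fold. In cortex the wild-type libraries ran from 74.2 to 108 CPM with a median of 91.1, the widest spread of the gene.

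The end-cleaning enzymes had another order. Aptx was lowest in cerebellum, at 31.1 ± 2.21 CPM, and measured 36.3 ± 1.35 in brainstem, 38.1 ± 2.34 in striatum and 39.4 ± 3.10 in cortex. It was the only one of the 7 with its lowest level there, and cortex exceeded cerebellum 1.27-fold (edgeR FDR 1.04e-10). Striatum differed neither from cortex (FDR 0.447) nor from brainstem (FDR 0.199). Tdp1, with the fewest reads of the 7, measured 17.0 ± 2.20 CPM in cortex, 15.8 ± 1.17 in cerebellum, 13.8 ± 0.949 in striatum and 13.6 ± 0.957 in brainstem. Its regions formed a higher pair, cortex and cerebellum (FDR 0.232 between them), and a lower pair, striatum and brainstem (FDR 0.855). Cerebellum lay above striatum (FDR 0.0156), though not without the libraries of high thalamus score (FDR 0.0541) or with a RIN of at least 7 (FDR 0.0682). That call was also lost without any 1 of wild-type mice 7267055, 7267059 and 9083371 (FDR 0.0504 to 0.0965).

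Atm measured 58.7 ± 3.71 CPM in cerebellum, 46.7 ± 5.77 in brainstem, 39.9 ± 4.19 in cortex and 37.6 ± 5.58 in striatum. Cerebellum was 1.56-fold above striatum (log2 difference 0.64, SE 0.10, edgeR FDR 9.35e-11) and 1.47-fold above cortex, and its lowest library, at 55.6 CPM, reached just above the highest brainstem library at 55.4. Atm was the one gene of the 7 whose brainstem level was the second highest, and brainstem exceeded striatum (FDR 0.00176) and cortex (FDR 0.0301). The call over cortex was lost without any one of wild-type mice 7267058, 9082857, 9083371, 9083373 and 9083375 (FDR 0.0502 to 0.104). Cortex and striatum did not differ beyond their spread (FDR 0.526).

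Levels of different genes can be compared only per length. Per kilobase of exon, wild-type cerebellum gave 42.9 ± 1.85 CPM for Polb, 24.6 ± 2.07 for Parp1, 15.0 ± 1.44 for Xrcc1, 11.8 ± 1.05 for Lig3, 7.76 ± 0.575 for Tdp1, 5.99 ± 0.379 for Atm and 5.71 ± 0.407 for Aptx. In the other 3 regions Atm was the lowest of the 7 on this scale, at 3.84 to 4.77 CPM per kilobase, and Polb the highest, at 29.7 to 32.4.

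The effect of the SCA3 genotype on the end repair genes was then examined in each region. Of the 28 tests, 1 passed, that of Atm in brainstem. In brainstem 1 of 7 genes was thus called where 1.92% of all genes were, and in cerebellum 0 of 7 (0.0647% of all genes), in cortex 0 of 7 (0.154%) and in striatum 0 of 7 (7.54%). For the other 27 tests the edgeR FDR was at least 0.352 and no unadjusted p was under 0.05, the smallest being 0.127. The quasi-likelihood test, DESeq2 and limma-voom called none of these 27 either.

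**Figure D2:**
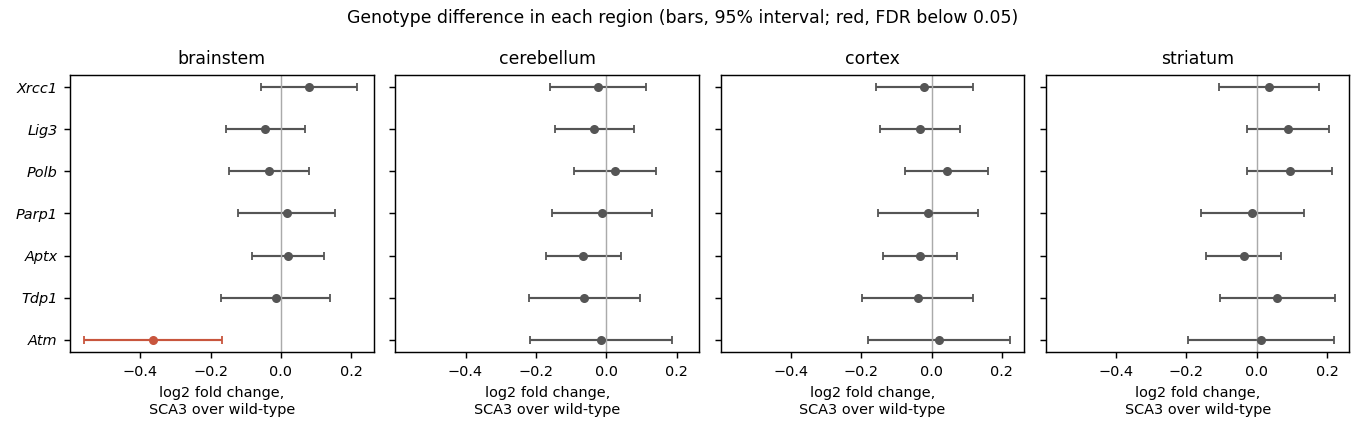
Log2 fold change of SCA3 over wild-type (horizontal axes) for the 7 genes (rows) in each region, with points for the edgeR estimate and bars for its 95% interval. The interval of Atm in brainstem, -0.56 to -0.17, is the only one that leaves out 0.

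For the 6 genes other than Atm, estimates lay close to 0 with narrow intervals. Their largest positive value was that of Polb in striatum (log2 fold change 0.09, SE 0.06, FDR 0.352), and the most negative that of Aptx in cerebellum (-0.06, SE 0.05, FDR 1). The intervals of all 27 tests reached no further than a 14.1% decrease and a 16.8% increase.

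In brainstem, Xrcc1 ran from 20.1 to 24.8 CPM in wild-type (median 21.5) and from 20.8 to 25.8 in SCA3 mice (median 23.3), an estimate of 5.70% with an interval of -3.78 to 16.1%. Parp1 was 63.0 ± 3.43 CPM in wild-type and 63.7 ± 2.44 in SCA3 brainstem, and Aptx was 36.3 ± 1.35 and 36.8 ± 1.71. Lig3 was 37.8 ± 1.33 and 36.7 ± 1.77 CPM, with 2 of 6 SCA3 libraries below the lowest wild-type one, and its interval ran from -10.2 to 4.76%. The ranges of the 2 genotypes overlapped for all 7 genes in all 4 regions.

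In striatum, Lig3 and Polb had the largest estimates of the 6. The 5 SCA3 libraries of Lig3 ran from 47.9 to 56.7 CPM (mean 53.1) within the wild-type range of 45.6 to 57.3 (mean 49.9), an estimate of 6.33% with an interval of -1.87 to 15.2%. Polb was 39.8 ± 0.961 CPM in SCA3 and 37.3 ± 3.13 in wild-type striatum (interval -1.83 to 15.9%). Tdp1 was the least precise of the 6, with a striatal interval from -6.94 to 16.6%. In cerebellum, where the 5 genes above peak, Xrcc1 was 37.2 ± 2.52 against 37.9 ± 3.66 CPM, Polb 52.4 ± 3.45 against 51.5 ± 2.22 and Parp1 94.6 ± 3.41 against 95.3 ± 8.00, SCA3 against wild-type.

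Atm was lower in SCA3 brainstem. The 8 wild-type libraries ran from 38.6 to 55.4 CPM with a median of 46.7. The 6 SCA3 libraries measured 27.5, 30.5, 35.9, 39.2, 40.6 and 44.0 CPM. Thus 3 SCA3 libraries lay below every wild-type one and the other 3 within the wild-type range. The log2 fold change was -0.36 (SE 0.10, 95% interval -0.56 to -0.17, edgeR FDR 0.0233), a decrease of 22.3% with an interval of 10.9 to 32.2%. The SCA3 brainstem mean of 36.3 ± 6.30 CPM lay below the SCA3 means of cortex, 40.5 ± 5.24, and striatum, 37.9 ± 1.08.

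No such difference was seen for Atm elsewhere. In striatum the 5 SCA3 libraries measured 36.7, 37.1, 37.7, 38.6 and 39.4 CPM, within the wild-type range of 28.9 to 44.3. In cerebellum the SCA3 libraries ran from 45.5 to 72.2 CPM around a median of 57.1, more widely than the wild-type ones, from 55.6 to 65.8 around 58.6. The SCA3 mice with the lowest brainstem values, 9083514 and 9083515, had 58.7 and 55.5 CPM in cerebellum, on either side of the group median, 36.2 (the second lowest of the 6) and 42.2 in cortex, and 39.4 (the highest of the 5) and 37.1 in striatum. Log2 fold changes were -0.02 in cerebellum, 0.02 in cortex and 0.01 in striatum, each with an SE of 0.10 to 0.11. The test of whether the genotype effect differs between regions gave Atm an edgeR FDR of 0.387 over all genes (0.0187 before adjustment). None of the 7 genes passed it, where 0.218% of all genes were called. The combined test over the 4 regions gave Atm an FDR of 0.127, and 0 of the 7 genes were called where 4.73% of all genes were. That combined test passed when wild-type mouse 7267055 (FDR 0.0404) or SCA3 mouse 7267056 (FDR 0.0400) was left out.

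Several measures moved with Atm in brainstem. The 3 brainstem libraries with the highest thalamus score, 5.86, 5.94 and 6.02 against 4.56 to 5.21 in the others, were the lowest 2 of the SCA3 and the lowest 1 of the wild-type libraries for Atm. In brainstem alone the log2 fold change was -0.37 (FDR 0.0458), and -0.31 (FDR 0.0152) with the score as a covariate. These fits called 3.17 and 5.36% of all genes. In the fit of all regions without the 5 libraries of high score it was -0.26 (FDR 0.404). RIN as a covariate in brainstem alone gave -0.38 (FDR 0.237), against -0.37 (FDR 0.0357) with RIN in the fit of all libraries. Among genes with over 8 kb of exon the median log2 fold change in brainstem was -0.09, against 0.03 for those of up to 2 kb. In this longest class 35 of the 42 called genes were lower. It was 35 of 60 at 4 to 8 kb, 50 of 100 at 2 to 4 kb and 21 of 35 at up to 2 kb. The median of the longest class was -0.01 in cerebellum, 0.05 in cortex and 0.06 in striatum, against 0.004, -0.03 and -0.04 for the shortest. After an offset that removed the trend of each library with exon length, Atm was at -0.28 (FDR 0.0399).

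Leaving out one mouse at a time kept the call in 10 of 14 cases, with log2 fold changes from -0.43 to -0.30. It was lost without SCA3 mouse 9083514 (-0.30, FDR 0.19), SCA3 mouse 9083515 (-0.32, FDR 0.147), wild-type mouse 9082857 (-0.33, FDR 0.0886) or wild-type mouse 9083371 (-0.35, FDR 0.0726). The mouse numbers fall into 3 series. In the series of mice 9083371 to 9083515, wild-type mice ran from 40.4 to 52.4 CPM (n = 4) and SCA3 mice from 27.5 to 35.9 (n = 3). Within that series the wild-type mice, numbered 9083371 to 9083375, were all 75 weeks old. The SCA3 mice, numbered 9083513 to 9083515, were all 74 weeks old, so age, number block and genotype cannot be told apart there. In the series of mice 7267054 to 7267059 they ran from 38.6 to 49.7 (n = 3) and from 40.6 to 44.0 (n = 2), with a log2 ratio of the means of -0.06. The lone pair of the last series, wild-type mouse 9082857 and SCA3 mouse 9082853, measured 55.4 and 39.2 CPM. Of 7 astrocyte markers 2 were called in SCA3 brainstem, both lower, and of 8 markers of mature oligodendrocytes 1, also lower, where 1.92% of all genes were called. Median log2 fold changes were -0.40 and -0.39, with summed levels of 2321 to 3554 against 2504 to 5411 CPM and of 9377 to 15864 against 10283 to 21350 CPM in wild-type. Without the libraries of high thalamus score 1 of each list was called (1.03% of all genes), with medians of -0.31 and -0.29. With all libraries, 1 of 7 microglia markers was called in brainstem, also lower (median -0.16, range -0.37 to -0.14). Of 5 endothelial markers 0 were called (median 0.14, range 0.03 to 0.21). The part of these cell types in the Atm result was not tested.

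**Figure D3:**
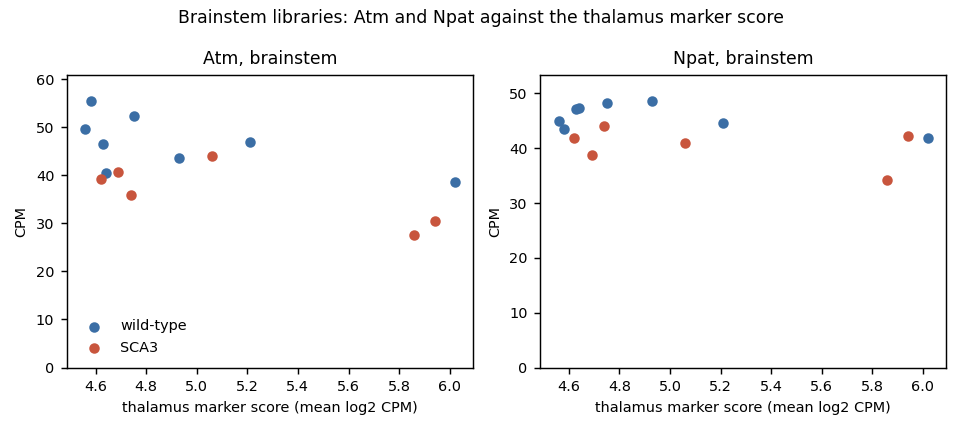
CPM of Atm and Npat (vertical axes, from 0) in each of the 14 brainstem libraries against the thalamus marker score (horizontal axes, mean log2 CPM of 9 genes), wild-type in blue and SCA3 in red. The 3 libraries at a score of 5.86 or more include the 2 lowest Atm values, 27.5 and 30.5 CPM.

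Npat, the neighbour with the divergent start, did not pass in brainstem. Its wild-type libraries ran from 41.8 to 48.6 CPM with a median of 46.0, and its SCA3 libraries from 34.3 to 44.0 with a median of 41.4, so that the groups overlapped. The log2 fold change was -0.18 (SE 0.07, edgeR FDR 0.140), and without the libraries of high thalamus score it was -0.16 (FDR 0.525). In the other 3 regions it lay between 0.01 and 0.07.

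Around the 7 genes, 70 other DNA repair and damage response genes were listed, of which 56 were in the table. With edgeR, in brainstem 0 of them were called, in cerebellum 0, in cortex 0 and in striatum 4 (7.14%, where 7.54% of all genes were called). Unadjusted p-values under 0.05 numbered 9, 0, 2 and 16 of the 56. Of all 12372 genes, 1640, 205, 503 and 2874 had such a value (13.3, 1.66, 4.07 and 23.2%). The share among the 56 was thus higher than among all genes in brainstem and striatum, and lower in cerebellum and cortex. These shares were not compared by a test. DESeq2 called 0, 0, 0 and 6, the latter 10.7% against 9.39% of all genes. With the thalamus score as a covariate in brainstem alone, 3 (5.36%) were called where 5.36% of all genes were, the kinase Atr (log2 fold change -0.24, FDR 0.0354) and the p53 targets Cdkn1a (0.44, FDR 0.032) and Gadd45a (0.45, FDR 0.0122). Atr was also called in brainstem with the mouse as a random block in limma-voom (-0.29, FDR 0.0482). It was not called by limma-voom without a block (-0.29, FDR 0.0608) or by edgeR (-0.28, FDR 0.0749). These 3 genes were named after their values were seen, and none was called without the libraries of high score. The median log2 fold change of the 56 was -0.01, -0.01, -0.01 and 0.04, against 0.00 for all genes in each region. In the edgeR fit of all libraries, of 12 single-strand break repair genes only Lig1, the replicative ligase, was called, at a striatal log2 fold change of -0.38 (SE 0.12, edgeR FDR 0.0259). None of 5 DNA glycosylases, 8 end joining genes or 12 genes of double-strand break signalling was called in any region in that fit, while DESeq2 called Rnf168, of double-strand break signalling, in striatum (0.14, FDR 0.0492; edgeR FDR 0.079, and 0.324 without the libraries of high thalamus score). Of 5 topoisomerase genes, mitochondrial Top1mt was called, in striatum (-0.41, SE 0.11, FDR 0.00887).

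Of 14 p53 target genes the stress-induced sestrins moved apart in striatum, with Sesn1 higher (0.19, SE 0.06, edgeR FDR 0.0325) and Sesn2 lower (-0.55, SE 0.12, FDR 0.00164), and the other 12 were not called in that fit, while DESeq2 also called Mdm2 in striatum (0.16, FDR 0.0477). The edgeR FDR of Mdm2 was 0.0697, and 0.252 without the libraries of high thalamus score. Sesn2 measured 8.74 ± 2.03 CPM in wild-type and 5.98 ± 0.949 in SCA3 striatum. Lig1 measured 16.0 ± 3.74 and 12.3 ± 1.40 CPM. Without the 5 libraries of high thalamus score, 2 of them wild-type striatum, Top1mt (-0.41, FDR 0.0294) and Sesn2 (-0.47, FDR 0.0241) were still called, whereas Lig1 (-0.32, FDR 0.166) and Sesn1 (0.16, FDR 0.210) were not, and in a fit of the striatum libraries alone none of the 56 genes was (10 had an unadjusted p under 0.05). With the thalamus score as a covariate in that fit Top1mt was at -0.36 (FDR 0.371), Sesn2 at -0.39 (FDR 0.479), Lig1 at -0.21 (FDR 0.685) and Sesn1 at 0.14 (FDR 0.443). Lig1 was not called by limma-voom, with the mouse as a random block (-0.36, FDR 0.0626) or without (-0.35, FDR 0.0688).

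**Figure D4:**
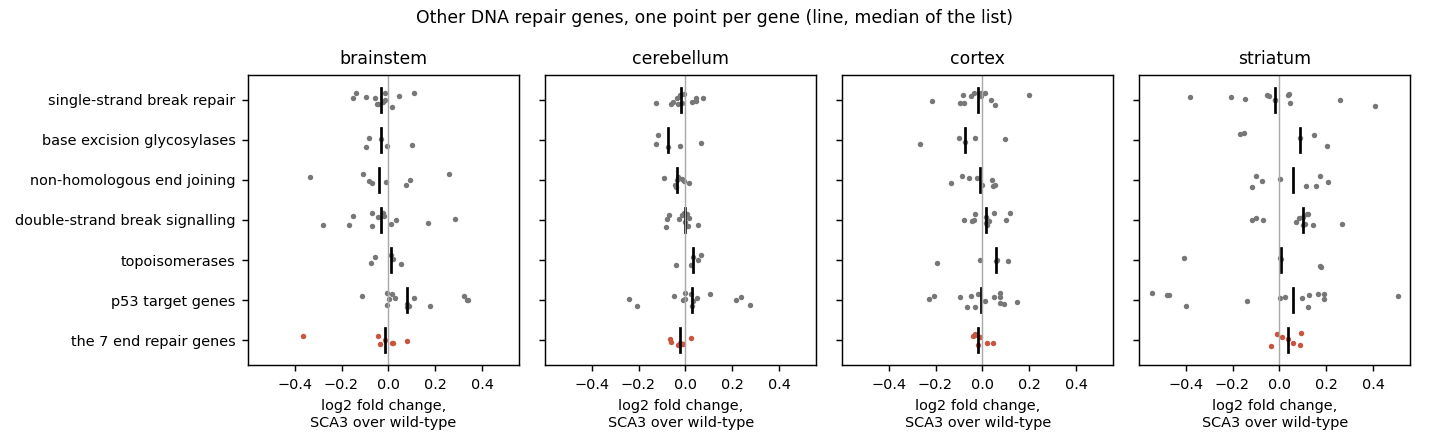
Log2 fold change of SCA3 over wild-type (horizontal axes) for 56 other DNA repair genes in 6 lists (grey) and for the 7 end repair genes (red), one point per gene, with a black line at the median of each list. The list medians stay near 0, and Atm is the red point at -0.36 in brainstem.

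How the 7 genes vary together from library to library was described by the correlation of deviations from the 8 group means over the 53 libraries, which share mice, dissections and RNA quality. Xrcc1 varied with Lig3 (r = 0.50), Tdp1 (0.42) and Parp1 (0.42). Atm had the opposite sign to Xrcc1 (-0.46), and went with Polb (0.41) and Npat (0.43). Aptx had no value beyond 0.32 with any other of the 7.

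**Figure D5:**
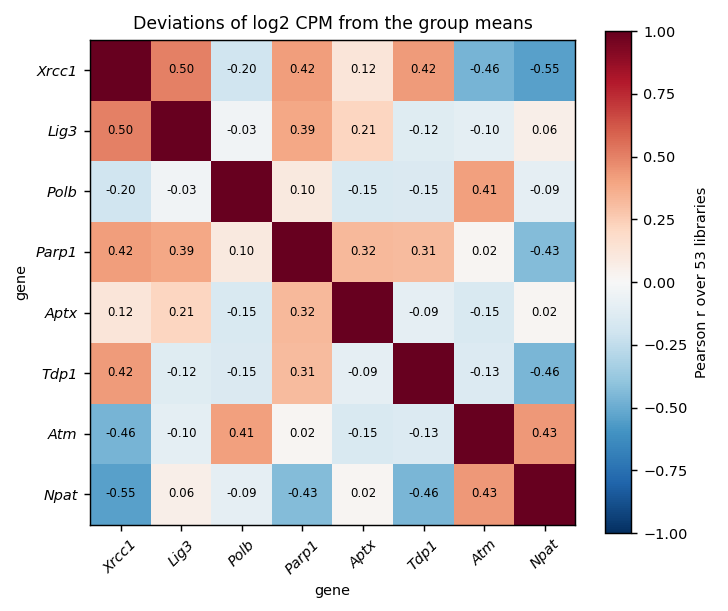
Pearson correlation (colour scale, -1 to 1) of deviations of log2 CPM from the group means over 53 libraries, for the 7 end repair genes and Npat on both axes. Xrcc1, Lig3 and Parp1 are positively correlated with each other, and Atm is highest with Npat at 0.43.

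Over the whole table, the genes with the highest correlation of deviations were Hdgfrp2 (0.86), Atp13a1 (0.84) and Zswim8 (0.84) for Xrcc1, and Kdm3b (0.82), Plekha5 (0.79) and Map3k3 (0.79) for Lig3. They were Ttc19 (0.71), Slc16a7 (0.70) and Vps13a (0.67) for Polb, and Trak1 (0.86), Ube3b (0.82) and Kcnip3 (0.82) for Parp1. For Aptx they were Psmf1 (0.73), Gfm2 (0.69) and Zkscan6 (0.68), and for Tdp1 Ap3d1 (0.66), Pfkl (0.66) and Tmem214 (0.66). Those of Atm were Dmxl2 (0.86), the chromatin remodeller Atrx (0.84) and Xpo4 (0.84). The median correlation with all genes was between -0.02 and 0.01 for each of the 7.

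Over the 30 wild-type libraries, where regional levels weigh in, Xrcc1 was most like the nuclease scaffold Slx4 (0.97), Traf7 (0.97) and Ppan (0.96), and Lig3 most like Map3k3 (0.95), Mllt10 (0.95) and Kdm3b (0.94). Polb was most like Exph5 (0.95), the DNA damage recognition gene Ddb2 (0.94) and Ftsj1 (0.92), and Parp1 like Dhx33 (0.92), Zcchc6 (0.91) and Coro2b (0.90). Aptx was most like Armcx5 (0.89), the glutamate transporter Slc1a2 (0.88) and Tomm34 (0.87), and Tdp1 like Dcakd (0.82), Klhl26 (0.79) and Gprin1 (0.79). Atm was most like Vps13c (0.92), Xpo4 (0.91) and Ttc37 (0.90), so that Xpo4 was among its first 3 on both measures, as Map3k3 and Kdm3b were for Lig3.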

How the data were processed

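The authors deposited whole-number read counts of each gene in 1 table, not normalised. Per their methods and processing notes, poly-A selected, unstranded libraries were trimmed (cutadapt 1.10), aligned to GRCm38 with STAR 2.3.0e, keeping unique alignments, and counted per RefSeq gene with HTSeq 0.6.1 without strand. Genes averaging above 4 CPM were kept. Library totals of 31.7 to 76.7 M counts (M for mega) set the precision.

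Group, mouse number, RIN, age and bodyweight came from the sample labels. Following the study, one fit in edgeR 4.0.16 (R 4.3.3) held all 53 libraries with TMM scaling and 8 groups of region and genotype, followed by likelihood ratio tests adjusted by Benjamini-Hochberg over 12372 genes. SE and 95% intervals came from the fitted dispersion. The script was tested on simulated data. Alternatives were the quasi-likelihood test, DESeq2 1.42.0, limma-voom 3.58.1 with and without the mouse as a block, RLE scaling, a minimum of 10 counts, RIN, mouse number series and thalamus score as covariates, libraries with RIN of at least 7, each region alone, and each mouse left out. After seeing the data, 3 were added (an exon length offset from a lowess trend, RIN within a region, and leaving out 5 libraries of high thalamus score). The same mouse gave several regions, so the libraries of different regions were not independent (mean correlation of deviations 0.09 to 0.19 between regions). Positions and exon lengths came from GENCODE vM21, covering 99.6% of genes.

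The 7 genes and all lists were chosen with earlier results of these data known. Named in the text were the 7 genes, Atxn3, repair genes called in any SCA3 comparison, and the 3 most correlated genes of each member on both measures. Npat, Smg1, Prkdc, Mtor and Trrap fall outside this rule and were named after their values were seen, and Atr, Cdkn1a, Gadd45a, Rnf168 and Mdm2 were called only under alternatives. Some genes covered by this rule and by the lists are not reported here.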

Additional observations from a re-analysis of the deposited data

Results flagged for a closer look

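Each of the 56 combinations of end repair gene, region and genotype was searched for a library that stood apart from its group, a search that flags about 1 in 20 groups by chance, and 2 were found. Xrcc1 in SCA3 striatum was lowest in mouse 9082853, at 25.6 CPM, against 29.4 to 30.7 in the other 4 SCA3 mice. Tdp1 in wild-type cortex was highest in mouse 7267058, at 21.7 CPM, against 15.2 to 17.0 in the other 6 wild-type mice.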

How the results depend on the processing

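The lower Atm level in SCA3 brainstem kept its direction under all alternatives run and its call under all 11 planned ones other than leaving out a mouse (log2 fold change -0.38 to -0.31, FDR 0.0104 to 0.0458), the mouse as a random block included (-0.37, FDR 0.0282). That block changed no other call of the 7 genes between the genotypes, and a fixed block for the mouse could not be fitted there, since genotype does not vary within a mouse. The members called in SCA3 brainstem numbered 0 in place of 1 with RIN as a covariate in brainstem alone (Atm -0.38, FDR 0.237) and without the 5 libraries of high thalamus score (-0.26, FDR 0.404). Leaving out each mouse gave -0.43 to -0.30 for Atm, 0 to 1 members called in brainstem, 0 to 1 in the combined test and 4 to 7 between wild-type brainstem and cortex. The call between brainstem and cortex was lost for Aptx without 3 mice (FDR 0.0534 to 0.141), for Atm without 5 (FDR 0.0502 to 0.104) and for Polb without 5 (FDR 0.058 to 0.151), and that of Tdp1 between cerebellum and striatum without 3 (FDR 0.0504 to 0.0965). The pairs gained were Lig3 between cerebellum and striatum without wild-type mouse 9082857 or 9083371, and for Parp1 cerebellum and cortex without 2 mice and cortex and striatum without 3. The cause was not tested.

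Estimates that were not called changed sign as follows. With the thalamus score as a covariate Xrcc1 in striatum was -0.026. With the exon length offset Atm was -0.029 in cortex and -0.046 in striatum. With RIN in cortex alone, Xrcc1 was 0.00239, Lig3 0.0018, Parp1 0.038, Aptx 0.0060 and Atm -0.016. Without the libraries of high thalamus score Polb in brainstem was 0.024, and in striatum Xrcc1 was -0.00484 and Parp1 0.013. Leaving out each mouse, Atm ran from -0.087 to 0.048 in cerebellum, -0.022 to 0.070 in cortex and -0.0334 to 0.0487 in striatum. Parp1 ran from -0.00474 to 0.037 in brainstem, -0.034 to 0.012 in cerebellum, -0.0505 to 0.0485 in cortex and -0.057 to 0.032 in striatum. Tdp1 ran from -0.053 to 0.014 in brainstem, -0.10 to 0.026 in cortex and -0.0181 to 0.118 in striatum, and Xrcc1 from -0.050 to 0.0055 in cerebellum and -0.0514 to 0.00847 in cortex. The other 717 estimates of the 7 genes under an alternative kept direction and side of the threshold, as did all 182 differences between highest and lowest wild-type region.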

Other observations

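Atm belongs to a family of 6 large proteins, kinases except for the pseudokinase Trrap, and its relatives were looked at after their brainstem values had been seen. Smg1, which acts in nonsense-mediated decay, had a log2 fold change of -0.34 (SE 0.13, edgeR FDR 0.190) in SCA3 against wild-type brainstem, Prkdc, the kinase of end joining, -0.34 (SE 0.12, FDR 0.113), and Atr, the kinase of stalled replication, -0.28 (SE 0.09, FDR 0.0749). The others were Mtor (-0.01, FDR 0.974) and Trrap (0.05, FDR 0.866). The 6 genes have exons of 8102 (Atr) to 15557 bases (Smg1), and the cause of these differences was not tested. After the offset for exon length the values were -0.21 for Smg1 (FDR 0.304), -0.22 for Prkdc (FDR 0.258), -0.23 for Atr (FDR 0.118), 0.05 for Mtor (FDR 0.740) and 0.17 for Trrap (FDR 0.373). In the edgeR fits given here, with and without the offset, Atm was the only one of the 6 called. Atr was called too with the mouse as a random block in limma-voom (-0.29, FDR 0.0482) and with the thalamus score as a covariate in brainstem alone (-0.24, FDR 0.0354). Without the libraries of high thalamus score none of the 6 was called, with Atm at -0.26 (FDR 0.404), Prkdc at -0.22 (FDR 0.802), Smg1 at -0.21 (FDR 0.897), Atr at -0.17 (FDR 0.742), Mtor at -0.07 (FDR 0.964) and Trrap at -0.02 (FDR 1).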
